A study of Mus musculus with 6 samples.

Results

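The Rab GTPase family was followed in macrophages of the pancreatic islets and of epididymal fat in the mouse. Members were all genes of the deposited table whose symbol is Rab followed by a number, with an optional letter and final digit, which gave 59 of 50600 genes. At least 1 count was found for 55 of them, and 41 had enough counts to be tested. Rab27a, Rab20, Rab10 and Rab9 were higher in islet macrophages, Rab31, Rab38 and Rab11b were lower, and the other 34 did not pass the test. When the library number shared by both tissues was added as a block, Rab38 and Rab11b did not pass. The share of tested members called in either direction was 17.1%, against 19.4% of all 12152 genes tested, so the family as a whole was not called more often than the background. Of all genes, 8.97% were higher and 10.5% lower in islet macrophages.

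The macrophages came from C57BL/6J males aged 12 weeks that ate a chow diet and received no treatment. Cells from islets and from epididymal white adipose tissue (called fat here) were sorted as live, DAPI-negative cells carrying CD45, F4/80 and CD64, the last a high-affinity Fc receptor. Each tissue had 3 libraries, numbered 2, 4 and 6, with the same batch label for the same number in both tissues. The 2 groups share strain, sex, age and diet, and differ by tissue. No genetic change was named for either, and it was not stated whether an islet library holds the cells of 1 mouse or of several.

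Rab proteins are small GTPases that mark the membranes inside a cell. An exchange factor loads a Rab with GTP and so switches it on at a membrane, where it recruits effectors such as tethers, motors and lipid-modifying enzymes, and a GTPase-activating protein switches it off. Macrophages use them to mature phagosomes, recycle receptors, deliver Toll-like receptors to the surface and move lysosome-related organelles.

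Total counts were 4089980 to 6923475 in islet libraries against 7450890 to 9235591 in fat libraries. The genes behind the sort markers, Ptprc, Adgre1 and Fcgr1, were present in all libraries and did not pass the test between tissues, with adjusted p values of 0.0639, 0.265 and 0.264 in edgeR's quasi-likelihood test with Benjamini-Hochberg adjustment. Of the 7 listed macrophage markers, the other 4 were Csf1r and Cd68, which did not pass, and Mertk and Itgam, which were lower in islet macrophages. Mertk, a receptor for dead cells, differed by -3.05 ± 0.34 on the log2 scale (adjusted p = 0.000586), and Itgam, the integrin chain CD11b, by -2.12 ± 0.30 (adjusted p = 0.00192). Islet libraries also held RNA of islet endocrine cells: all 8 genes of that marker list were higher there, and together they took 0.783%, 0.526% and 0.369% of counts in libraries 2, 4 and 6, against at most 0.000631% in fat. The 5 duct and epithelial markers took 0.00289% to 0.00792% in islet libraries, where Krt19 was at 0. The 8 acinar markers took 0.000469% to 0.00734% there, with Amy2a5 at 0 in every library. Fat libraries held adipocyte markers at 0.00212% to 0.00603% and fibroblast markers at 0.00949% to 0.0426%, while the 5 adipocyte markers were at 0 in all islet libraries. Heat shock genes took 9.62% and 10.4% of counts in islet libraries 2 and 4, 0.816% in islet library 6 and 0.260% to 0.293% in fat. The part of this other RNA and of the heat shock response in the results was not tested. Values without islet libraries 2 and 4 set islet library 6 alone against fat: the spread then comes from the fat libraries, the lone islet library is assumed to vary like them, and its other differences from libraries 2 and 4 cannot be told apart from heat shock. In such bulk RNA, fewer cells of a type and less RNA per cell cannot be told apart.

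Promoters are shown first, because many members serve lysosomes and phagosomes, and factors of the TFEB family, known to control lysosomal genes, bind a form of the E-box. RefSeq promoter windows of 300 bases (250 before to 50 after a start, GRCm38.p6) were found for 48 of the 59 members, 60 windows in all. The E-box CACGTG, a palindrome that basic helix-loop-helix factors bind, was present in 6 of the 60 windows, or 10% against 7.15% of all 32851 windows. Its longer form, the E-box with GT before and AC after it, known as the CLEAR element of lysosomal genes, was in 3 of them, 5% against 0.326% of all windows. The antioxidant response core TGACNNNGC, searched on both strands as all motifs were, was in 10 windows of 9 genes, 16.7% against 12.4%. The heat shock element, searched as GAA, TTC and GAA in a row with 2 bases between them, was in 0 of 60, against 0.603%. All E-box sites of the members are printed so that the flanks can be compared. Each is 30 bases, 5′ to 3′ on the gene's strand, with the E-box in capitals.
Rab20: cggccgggcaccCACGTGgtcgcagggctg
Rab27a: cttgCACGTGctcctccgtctgtctgaacc
Rab23: cttcagtgctacCACGTGagtctcaggtgg
Rab21: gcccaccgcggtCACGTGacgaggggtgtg
Rab24: cggcgcccgcgtCACGTGaccgggcgtccc
Rab5a, upstream site: aattggagaagaCACGTGacgcaaccccac
Rab5a, downstream site: acccggggatgtCACGTGacttcggccccg

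The Rab20 site lies at chr8:11478669-11478698 (minus strand), with its E-box starting 46 bases before the RefSeq start, and that stretch is inside the first exon in GENCODE M21. The Rab27a site, chr9:73063898-73063927 (plus strand), belongs to a second RefSeq start inside the gene, 246 bases upstream of it, and gene counts do not show which start was used. The Rab23 site is at chr1:33719666-33719695 (plus strand). The full CLEAR letters are in the sites of Rab21 (chr10:115315604-115315633, minus strand), Rab24 (chr13:55321961-55321990, minus strand) and the downstream site of Rab5a (chr17:53479127-53479156, plus strand), while its upstream site at chr17:53478987-53479016 has only the E-box. None of these 3 CLEAR-bearing genes passed the test between tissues (adjusted p = 0.506 for Rab21, 0.102 for Rab24 and 0.619 for Rab5a). Of the 6 genes with an E-box, Rab20 and Rab27a were among the 4 that were higher in islet macrophages. Of all genes tested, 8.97% were higher. Rab23 and the 3 CLEAR-bearing genes did not pass, and the log2 difference of Rab23 was -1.13 ± 0.75 (adjusted p = 0.346). The 250 bases before the start of Rab31, the only called member that passed without each of the 6 libraries in turn, hold neither form.
Rab31: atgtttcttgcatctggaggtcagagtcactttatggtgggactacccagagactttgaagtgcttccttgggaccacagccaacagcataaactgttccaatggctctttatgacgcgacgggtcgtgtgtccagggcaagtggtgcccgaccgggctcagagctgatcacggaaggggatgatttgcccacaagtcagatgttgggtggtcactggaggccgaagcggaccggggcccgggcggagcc

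This stretch is chr17:65772753-65773002 on the minus strand, with all bases in lower case because no E-box is there to mark. A match or its absence describes these letters alone.

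Levels are given as CPM, counts per 1000000 after TMM scaling of library sizes, and for comparisons between genes as CPM per kilobase of exon. Rab7, which drives traffic from late endosomes to lysosomes, had the highest mean level over all libraries, at 101 ± 11.5 CPM per kilobase in islet macrophages and 96.1 ± 5.95 in fat macrophages (SD, n = 3 each). Its CPM were 285, 230 and 279 in islet libraries 2, 4 and 6 against 233, 263 and 256 in fat. The groups overlapped, and the log2 difference of islet minus fat was 0.08 ± 0.23 (SE) with an adjusted p of 0.852. Rab8b, a close relative of Rab10 in delivery to the cell surface, came next at 107 ± 51.2 CPM per kilobase in islet and 72.5 ± 3.80 in fat macrophages. The large islet SD came from library 6, with 785 CPM against 399 and 338 in libraries 2 and 4, and the log2 difference was 0.57 ± 0.35 (adjusted p = 0.302).

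Rab5c, an early endosome Rab, stood at 55.5 ± 9.61 and 72.8 ± 10.3 CPM per kilobase in islet and fat macrophages. Rab1a, which acts between the endoplasmic reticulum and the Golgi, had 51.0 ± 24.3 and 52.0 ± 1.91, and Rab7b, a late endosome and trans-Golgi Rab, had 42.7 ± 20.3 and 50.0 ± 5.64. In fat macrophages the order from the top was Rab7, Rab5c, Rab8b, Rab1a, Rab7b and Rab31, with Rab10 at rank 7 and Rab20 at rank 10. There the libraries of Rab7 lay above those of Rab5c and the libraries of Rab8b above those of Rab1a, while the other neighbours overlapped. In islet macrophages it was Rab8b, Rab7, Rab10, Rab20, Rab5c and Rab1a, with Rab31 at rank 15, and all neighbours among the first 6 overlapped. Rab9 stood at rank 11 in islet and 25 in fat macrophages.

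**Figure D1:**
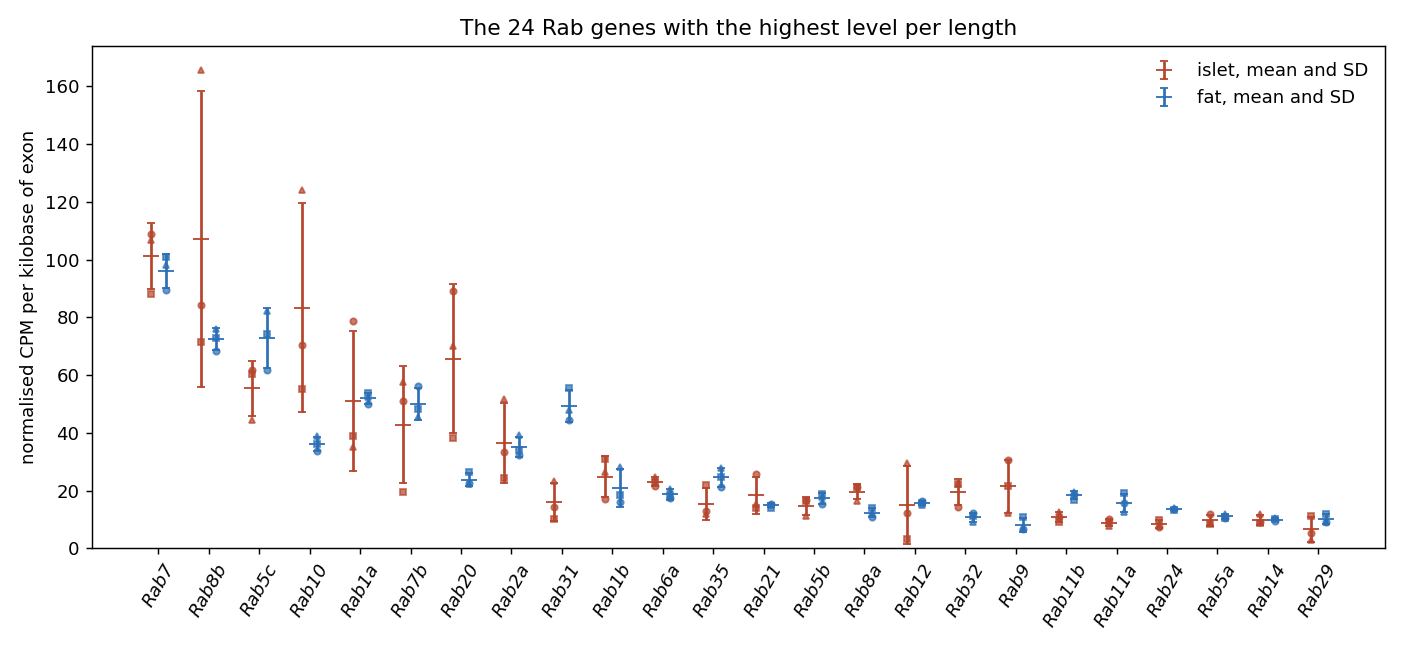
Level of the leading Rab genes in CPM per kilobase of exon, ordered by mean over all libraries, with mean and SD of 3 islet and 3 fat libraries (circle, square and triangle for libraries 2, 4 and 6). Rab7 is among the first 2 genes and Rab8b among the first 3 in both tissues, and Rab10 and Rab20 stand higher and Rab31 lower in the islet libraries.

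Of all reads counted in genes, Rab transcripts took 0.252%, 0.201% and 0.363% in islet libraries 2, 4 and 6, whereas fat held 0.302%, 0.284% and 0.313%. Islet values lay on both sides of the fat values, and the exact 95% interval of each share was narrower than the gaps between islet libraries, for example 0.248% to 0.256% in islet library 2. Within the family, Rabs of recycling and delivery to the surface made up 26.6%, 29.3% and 40.5% of the summed level per kilobase in islet libraries 2, 4 and 6, against 27.2% to 27.4% in fat. Rab10 alone took 7.97%, 8.03% and 13.2% in islet libraries against 4.57% to 4.90% in fat. Rab8b took 9.52%, 10.4% and 17.6% in islet libraries against 9.23% to 9.61% in fat, so library 6 was set apart by both genes.

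**Figure D2:**
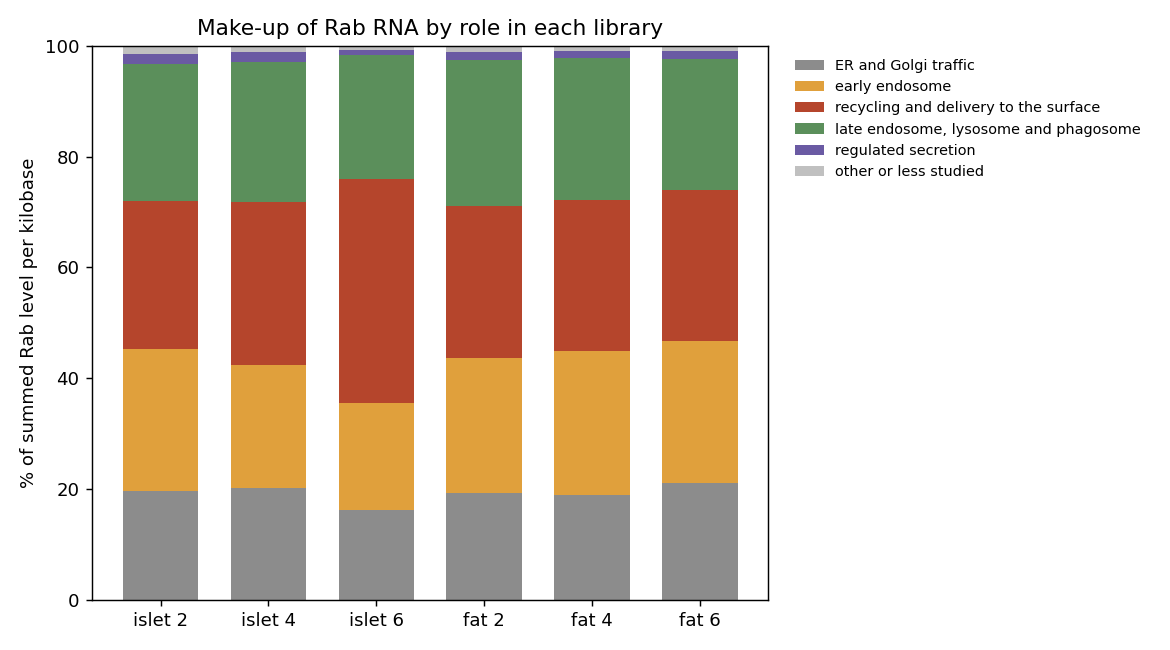
Make-up of the summed Rab level per kilobase by role in each of the 6 libraries, as a percentage. The share of recycling and surface delivery Rabs was 40.5% in islet library 6 and between 26.6% and 29.3% in the other 5.

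Among Rabs of the early endosome, 7 of 8 were tested, with Rab20 higher and Rab31 lower. Rab20, a Rab of phagosome maturation, had 124, 53.0 and 97.5 CPM in islet libraries 2, 4 and 6 against 31.5, 36.6 and 30.9 in fat. All islet libraries lay above all fat libraries. The log2 difference was 1.47 ± 0.33, a 2.78-fold higher level, with an adjusted p of 0.0142. Leaving out fat library 2, 4 or 6 moved the adjusted p to 0.0808, 0.0647 or 0.0734. The log2 difference was 1.48 without islet libraries 2 and 4. Of the exon length of Rab20, 25.6% is shared with E230013L22Rik on the opposite strand. That gene had 15.3, 12.0 and 5.39 CPM in islet libraries 2, 4 and 6 against 8.04, 9.42 and 5.06 in fat. The strand setting of the counting was not stated, and without strand reads of the pair cannot be told apart.

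Rab31, which acts between the trans-Golgi network and endosomes, went the other way. It had 54.6, 39.3 and 88.5 CPM in islet libraries 2, 4 and 6 against 170, 211 and 183 in fat, with no overlap. The log2 difference was -1.62 ± 0.32, a level 3.08-fold higher in fat macrophages, with an adjusted p of 0.00855. It passed without each of the 6 libraries in turn, though not without the pair of libraries numbered 2 (0.145) or 4 (0.0607). It was -1.16 on the log2 scale with islet library 6 alone. Rab5a, the Rab that defines the early endosome, had 61.9, 44.7 and 46.5 CPM in islet and 56.3, 56.0 and 63.1 in fat, with a log2 difference of -0.20 ± 0.24 and an adjusted p of 0.619. Rab5b, Rab5c, Rab21 and Rab22a also did not pass.

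**Figure D3:**
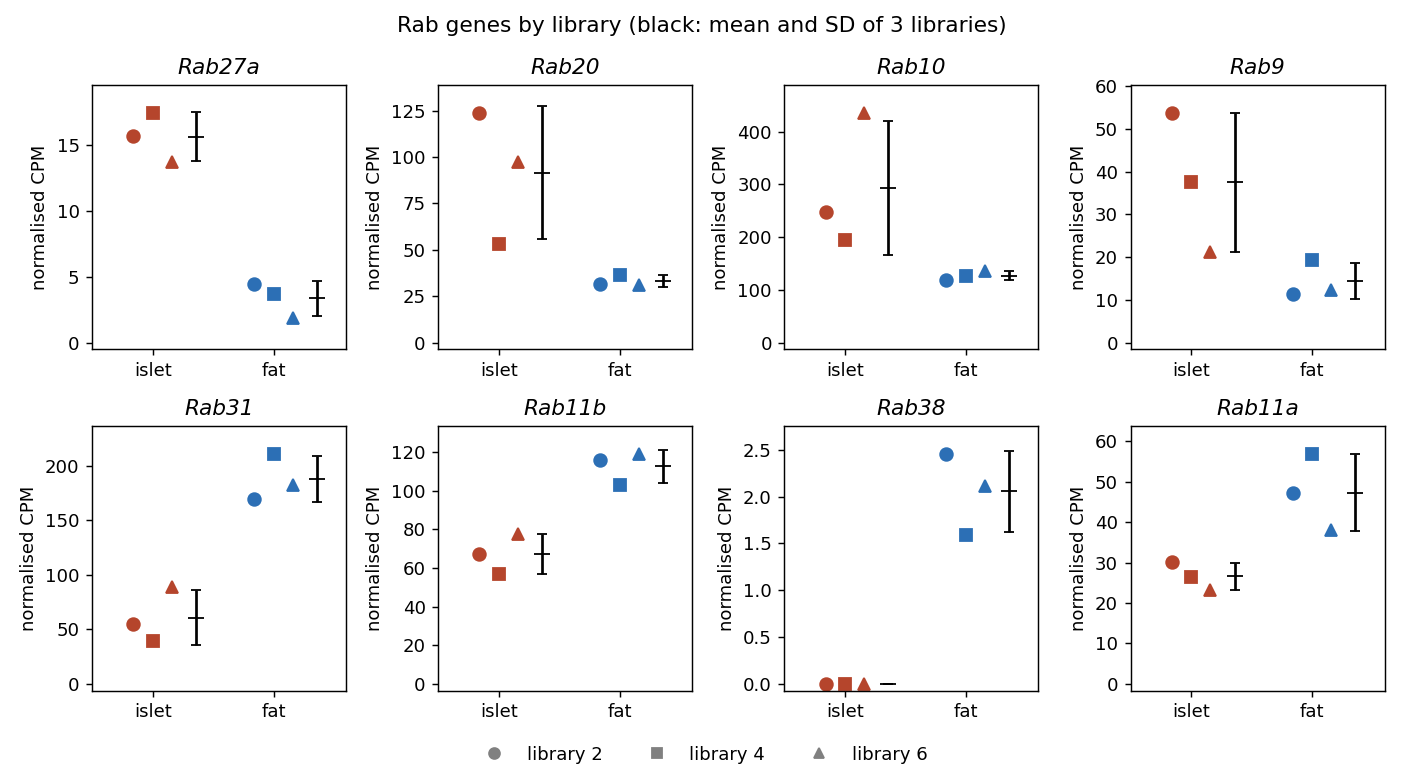
CPM of single Rab genes in each library, islet and fat, with mean and SD of each tissue in black (circle, square and triangle for libraries 2, 4 and 6). The islet libraries of Rab27a, Rab20, Rab10 and Rab9 lie above all fat libraries, and those of Rab31, Rab38 and Rab11b lie below.

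In recycling and delivery to the surface, 10 of 13 members were tested, with Rab10 higher and Rab11b lower. Rab10 carries the glucose transporter GLUT4 to the surface of adipocytes and, in mouse macrophages, helps deliver Toll-like receptor 4. It had 248, 194 and 436 CPM in islet libraries 2, 4 and 6 against 118, 127 and 136 in fat. All islet libraries were higher, with library 6 the highest. The log2 difference was 1.20 ± 0.33, or 2.31-fold, with an adjusted p of 0.0322. Leaving out islet library 2 gave 0.0586, and leaving out fat library 2, 4 or 6 gave 0.149, 0.142 or 0.105. Without islet library 6 the log2 difference fell to 0.79, with an adjusted p of 0.0198. It was 1.70 without islet libraries 2 and 4. The opposite-strand gene Rab10os covers 4.07% of the exons of Rab10, and its counts were 111, 71 and 80 in islet against 326, 202 and 195 in fat.

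Rab11b and Rab11a return cargo from the recycling endosome to the surface. Rab11b had 67.1, 57.1 and 77.5 CPM in islet libraries against 116, 103 and 119 in fat. The groups did not overlap, and the log2 difference was -0.74 ± 0.22, a level 1.67-fold higher in fat macrophages, with an adjusted p of 0.0483. With the replicate number as a block the adjusted p was 0.0799. Leaving out islet library 2 or 4 gave 0.101 or 0.0731, and leaving out fat library 2, 4 or 6 gave 0.174, 0.0979 or 0.162. Its paralog Rab11a had 30.0, 26.4 and 23.3 CPM in islet and 47.1, 56.9 and 38.0 in fat, also without overlap. The log2 difference of Rab11a was -0.83 ± 0.26, with an adjusted p of 0.0562. It passed with DESeq2 (0.0167), RLE factors (0.0454), protein-coding genes alone (0.0428) and without ribosomal RNA and mitochondrial genes (0.0467). Without both libraries numbered 2 the adjusted p rose to 0.245. With islet library 6 alone the log2 difference was -1.10. Rab25, an epithelial relative of Rab11, was named after its values were seen: it had 21 counts in islet library 2 and 0 in the other 5 libraries. Duct and epithelial markers together were also highest in islet library 2, at 0.00792% of counts against 0.00289% and 0.00569% in libraries 4 and 6. The listed genes did not all share this order. Krt18 had 64.1, 23.2 and 5.25 CPM in islet libraries 2, 4 and 6, whereas Krt8 had 9.07, 0.287 and 32.2. Krt19 had 0 in each of them. The part of such RNA in the Rab25 counts was not tested.

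Rab8a, which shares cargo with Rab10, did not pass. It had 99.4, 99.2 and 77.3 CPM in islet libraries against 51.2, 65.8 and 56.6 in fat, a log2 difference of 0.67 ± 0.23 with an adjusted p of 0.0768.

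Late endosome, lysosome and phagosome Rabs numbered 12, of which 9 were tested, with Rab9 higher and Rab38 lower. Rab9 returns receptors from late endosomes to the trans-Golgi network. It had 53.8, 37.6 and 21.3 CPM in islet libraries 2, 4 and 6 against 11.4, 19.2 and 12.4 in fat. The groups did not overlap, and islet library 6 lay close to fat library 4. The log2 difference was 1.39 ± 0.40, or 2.62-fold, with an adjusted p of 0.0398. Leaving out islet library 2 or 4 gave 0.132 or 0.0573, and leaving out fat library 2, 4 or 6 gave 0.174, 0.0776 or 0.147. Without islet libraries 2 and 4 the log2 difference was 0.50 (adjusted p = 0.298). The insulin gene Ins2 was also highest in islet library 2 and lowest in 6, at 5523, 3509 and 1884 CPM. Sst and Ppy, of the same list of islet endocrine markers, rose instead, at 69.9, 94.3 and 201 CPM and at 5.44, 29.8 and 57.7 CPM. The heat shock gene Hspd1 fell as Ins2 did, at 3069, 809 and 248 CPM, while Hspa1b was highest in library 4. The part of islet cell RNA and of heat shock in the result was not tested. The paralog Rab9b had no count in any library.

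Rab38 and Rab32 serve lysosome-related organelles. Rab38 had counts of 26, 12 and 18 in fat libraries 2, 4 and 6, or 2.46, 1.59 and 2.12 CPM, and 0 in every islet library. It was at least 3.30-fold lower in islet macrophages, taking a floor of 3 counts per library. The adjusted p was 0.0251 and became 0.118 with the replicate number as a block. Leaving out islet library 2 gave 0.0505, and leaving out fat library 2, 4 or 6 gave 0.134, 0.0965 or 0.0902. Rab32 had 33.5, 52.2 and 51.9 CPM in islet and 28.5, 26.1 and 21.4 in fat. Its islet libraries lay above fat, but the log2 difference of 0.85 ± 0.28 did not pass (adjusted p = 0.0631).

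Rabs of regulated secretion were mostly scarce, and 3 of 9 were tested. Rab27a, which docks secretory lysosomes and exosome-bearing endosomes at the surface, had the largest fold of the tested members that were higher. It had 15.7, 17.5 and 13.7 CPM in islet libraries against 4.44, 3.72 and 1.88 in fat. All islet libraries lay above all fat libraries. On the log2 scale it differed by 2.21 ± 0.45, or 4.64-fold, with an adjusted p of 0.00986. Leaving out fat library 4 gave 0.0537, and the call held in the other 5 such fits. Without islet libraries 2 and 4 the log2 difference was 1.95. The paralog Rab27b had 0 counts in islet libraries against 4, 2 and 3 in fat.

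Rab3 proteins are found on the granules of neurons and endocrine cells. Rab3a had 10.5, 3.15 and 0 CPM in islet libraries 2, 4 and 6 against 7.66, 7.43 and 9.88 in fat. The islet values spread on both sides of fat, with a log2 difference of -0.89 ± 1.09 and an adjusted p of 0.623. Rab37, a granule Rab, and Rab3b did not have enough counts for the main test and are given after their values were seen. Rab37 had counts of 46, 16 and 9 in islet libraries 2, 4 and 6 against 1, 0 and 1 in fat, a ratio of 59.5 whose 95% interval from counting alone ran from 15.9 to 501. Rab3b had counts of 19, 12 and 0 in islet libraries against none in fat, at least 7.03-fold higher on the floor of 3 counts per library. Rab3a, Rab37 and Rab3b fell in the order of islet libraries 2, 4 and 6, as did Ins2 and the heat shock gene Hspd1. Other genes of these marker lists did not: Sst and Ppy rose in that order, and Hspa1b was highest in library 4. The part of islet cell RNA and of heat shock in these Rabs was not tested.

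No member acting in ER and Golgi traffic passed in the main fit, of 9 tested, where 19.4% of all genes were called. The log2 differences of these 9 ran from -0.96 to 0.58. With islet library 6 alone against fat they ran from -1.51 for Rab6b to 0.48 for Rab43. Rab18 passed with DESeq2 (adjusted p = 0.0478), and both Rab18 (0.0496) and Rab33b (0.0391) passed in edgeR without islet library 2. Of 3 tested members with other or less studied roles, none passed either. Among the 18 members not tested, Rab9b, Rab17, Rab33a and Rab42 had no count. Rab37 (5.02), Rab3b (2.42) and Rab25 (1.41) had the highest mean CPM of the rest, all in islet. The other 11, which were Rab4a, Rab19, Rab39b, Rab15, Rab40b, Rab30, Rab27b, Rab36, Rab44, Rab3c and Rab26, had means of at most 1.01 CPM in either tissue.

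**Figure D4:**
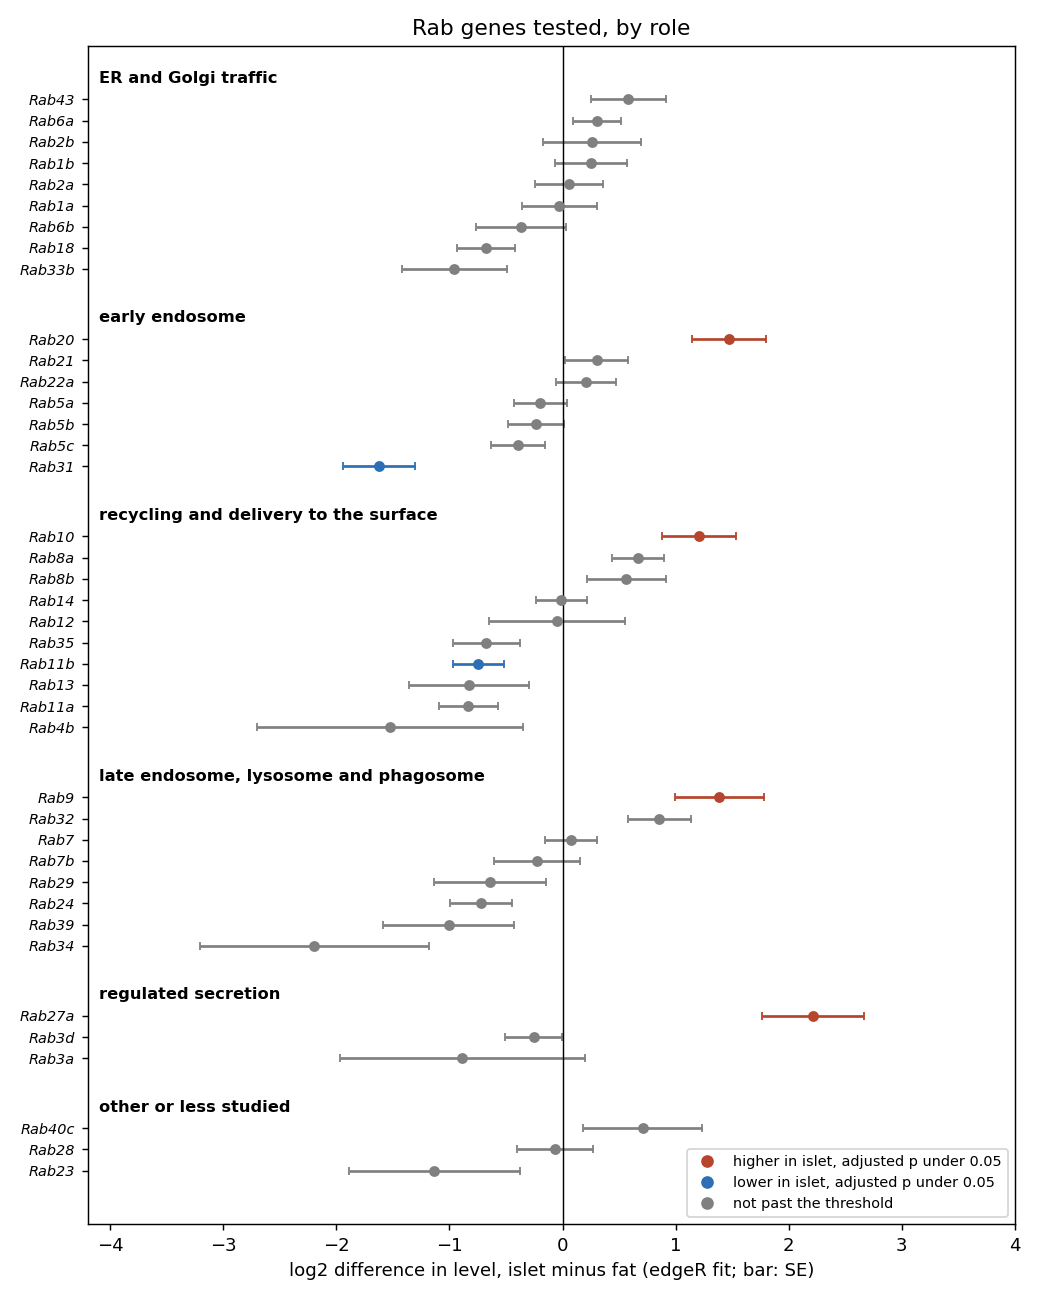
Log2 difference, islet minus fat, with its SE for tested Rab genes by role. Rab38 is left out because its islet counts are all 0. The coloured genes passed an adjusted p of 0.05, and the estimates of ER and Golgi members stay between -0.96 and 0.58.

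Across the 41 tested members, 16 estimates were positive and 25 negative, with a median log2 difference of -0.20 against 0.01 over all genes tested. The median size of the difference was 0.67 (log2), against 0.65 over all genes. Islet libraries lay above all fat libraries for 8 of the 41 members and below for 11, where the background was 18.2% above and 22.3% below, or 40.6% together. The spread between libraries was larger in islet than in fat for 34 of 41 members, or 82.9%, and for 80% of all genes. Levels differed more than 2-fold among islet libraries for 41.5% of the members and 57.2% of all genes, and among fat libraries for 7.32% and 20.3%. With islet library 6 alone against fat, where no spread between islet libraries enters, 6 of 42 tested members were called higher and 13 of 42 lower, beside 14.4% and 20.4% of all genes.

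The exchange factors and GTPase-activating proteins that switch Rabs on and off were taken next. Of 80 listed regulators, 76 were tested, with 7 higher and 10 lower in islet macrophages, or 22.4% against the background of 19.4%. Among 35 exchange factors tested, 4 were higher and 3 lower, or 20%, near that background. Hps4, part of the exchange factor for Rab32 and Rab38, had 44.7, 47.9 and 26.7 CPM in islet libraries 2, 4 and 6 against 9.36, 11.3 and 8.23 in fat. The groups were well apart, with a log2 difference of 2.04 ± 0.33 and an adjusted p of 0.00327. Its partner in that complex, Hps1, named after its values were seen, had a log2 difference of 0.14 ± 0.29 (adjusted p = 0.791).

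Rin3, an exchange factor of the Rab5 family that also acts on Rab31, had 185, 172 and 171 CPM in islet and 62.4, 55.9 and 84.8 in fat. On the log2 scale it differed by 1.38 ± 0.24, with an adjusted p of 0.00496 that became 0.0502 without fat library 4. The paralogs Dennd1a and Dennd1b, both exchange factors of Rab35, went opposite ways. Dennd1b had 149, 147 and 147 CPM in islet and 85.1, 67.7 and 73.9 in fat (log2 0.97 ± 0.21, adjusted p = 0.0142, and 0.0617, 0.117 and 0.0802 without fat libraries 2, 4 and 6). Dennd1a had 54.0, 52.8 and 43.4 CPM in islet and 107, 111 and 114 in fat (log2 -1.14 ± 0.22, adjusted p = 0.00717). Sbf2, an exchange factor of Rab21, had 51.8, 48.5 and 46.2 CPM in islet and 287, 264 and 263 in fat, a level 5.56-fold higher in fat macrophages (adjusted p = 0.000221).

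GTPase-activating proteins were called in 10 of 30 tested, with 3 higher and 7 lower, or 33.3% against 19.4% of all genes. Tbc1d4, also known as AS160, switches off Rab10 in insulin-responsive cells and had the largest fall of the regulators. It had 4.84, 2.87 and 3.91 CPM in islet libraries 2, 4 and 6 against 84.4, 64.0 and 79.5 in fat. All islet libraries lay far below, with a log2 difference of -4.27 ± 0.31, or a level 19.3-fold higher in fat macrophages, and an adjusted p of 9.44e-05. Its paralog Tbc1d1, named after its values were seen, had a log2 difference of 0.48 ± 0.28 (adjusted p = 0.273). Evi5, a GTPase-activating protein linked to Rab11, had 14.1, 11.8 and 22.4 CPM in islet and 116, 107 and 119 in fat, and its relative Evi5l differed by -2.29 ± 0.37 on the log2 scale. Tbc1d14, an inhibitor of autophagosome formation that binds Rab11, differed by -1.17 ± 0.22.

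Tbc1d16, which acts on Rab4, went up: it had 73.8, 90.0 and 33.1 CPM in islet libraries against 9.27, 14.7 and 13.6 in fat (log2 2.38 ± 0.40, adjusted p = 0.00433). Tbc1d9 had 209, 246 and 189 CPM in islet and 88.4, 71.6 and 91.5 in fat, with a log2 difference of 1.36 ± 0.24 and an adjusted p of 0.00464 that became 0.0516 without fat library 4. Sgsm1 had 10, 12 and 42 counts in islet libraries against none in fat, which made it at least 10.7-fold higher, and its adjusted p of 0.0104 became 0.0531 without fat library 2. Of 11 tested genes for membrane cycling, lipid attachment and phosphorylation of Rabs, none passed, where 19.4% of all genes were called.

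Effectors were listed as 61 genes, of which 48 were tested, with 8 higher and 5 lower in islet macrophages, or 27.1% against the background of 19.4%. Among 27 tested effectors of early and recycling endosomes, 4 were higher and 4 lower, or 29.6% against the same background. Rab11fip5, which binds Rab11 on recycling endosomes, had 40.3, 29.2 and 18.2 CPM in islet libraries against 320, 364 and 441 in fat. It was the most lowered effector, at -3.68 ± 0.35 on the log2 scale, 12.9-fold higher in fat macrophages with an adjusted p of 0.000278. The related Rab11fip4 went the other way, with 5.85, 7.17 and 6.87 CPM in islet and 1.13, 0.398 and 0.353 in fat. Its log2 difference was 3.33 ± 0.74 (adjusted p = 0.0143, and 0.0823 and 0.0665 without fat libraries 4 and 6).

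Ocrl and Inpp5b are related lipid phosphatases that bind many Rabs and act on the same phosphoinositide. Ocrl had 22.2, 19.5 and 29.1 CPM in islet and 75.7, 69.9 and 79.9 in fat, with a log2 difference of -1.67 ± 0.25 (adjusted p = 0.00247). Inpp5b had 64.5, 61.4 and 91.2 CPM in islet and 25.3, 17.9 and 23.3 in fat, at 1.71 ± 0.27 (adjusted p = 0.00325). The pair thus differed in opposite directions, each without overlap. Appl2, an early effector of Rab5, fell to 20.8, 16.1 and 29.9 CPM in islet from 90.8, 81.5 and 73.5 in fat (log2 -1.87 ± 0.29, adjusted p = 0.00277).

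Mical1 oxidises actin and binds Rab8-family members. It had 91.3, 83.1 and 94.0 CPM in islet and 7.47, 7.30 and 8.47 in fat, with a log2 difference of 3.53 ± 0.25, or 11.5-fold, and an adjusted p of 8.68e-05. Of its exon length, 15.0% overlaps Smpd2, which had 7 to 31 counts in islet and 37 to 50 in fat. Mical1 had 290 to 698 counts in islet and 55 to 79 in fat. The part of the overlap in the result was not tested. Micall1, a related scaffold of recycling endosomes, differed by 2.26 ± 0.41. Rilpl1, which binds Rab8 and Rab10 once they are phosphorylated, had 21.2, 17.8 and 19.5 CPM in islet and 5.01, 1.59 and 1.65 in fat (log2 2.80 ± 0.53, adjusted p = 0.00706). Of 11 tested effectors listed under late endosome and lysosome, only Rilpl1 was called, or 9.09% against 19.4% of all genes. Rilp of the same list is named after its values were seen. It had 1.21, 2.01 and 0 CPM in islet and 9.74, 7.70 and 9.18 in fat, without overlap. The log2 difference of Rilp was -3.16 ± 0.97, with an adjusted p of 0.0522. It passed with DESeq2 (0.00316) and voom (0.0227), and not with the replicate block (0.0622).

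Of the 13 secretion effectors, 3 were tested. Rims2, a Rab3 effector known from neurons and islet cells, had 24, 12 and 23 counts in islet libraries 2, 4 and 6 against none in fat, which made it at least 11.0-fold higher (adjusted p = 0.00835). Its 4.84, 3.44 and 3.10 CPM in islet libraries 2, 4 and 6 followed the order of Ins2 and Hspd1, while Sst and Ppy rose in that order. The part of islet cell RNA and of heat shock in Rims2 was not tested. Unc13d, a partner of Rab27a in the release of secretory lysosomes, was named after its values were seen. It had 22.2, 28.7 and 19.5 CPM in islet and 8.32, 9.82 and 7.53 in fat, with a log2 difference of 1.45 ± 0.33 and an adjusted p of 0.0150. Without fat library 2, 4 or 6 its adjusted p was 0.0832, 0.0672 or 0.0790. Mlph, the last of the 3 tested and also named after its values were seen, went the other way. It had counts of 0, 2 and 0 in islet libraries 2, 4 and 6 against 20, 17 and 16 in fat, without overlap. The log2 difference of Mlph was -3.65 ± 1.33 with an adjusted p of 0.0928, and it passed with DESeq2 (0.0489) and voom (0.0376). Among Golgi effectors, Erc1, which binds Rab6, had 3.63, 3.44 and 2.83 CPM in islet and 25.3, 20.2 and 14.5 in fat. Myo5a, a motor used by Rab27 and Rab11 cargo, had 279, 317 and 457 CPM in islet and 779, 668 and 737 in fat. Its log2 difference was -1.05 ± 0.28 (adjusted p = 0.0305), and only leaving out islet library 6 kept it past the threshold. The adjusted p was 0.0998 and 0.0546 without islet libraries 2 and 4 and 0.126, 0.0783 and 0.102 without fat libraries 2, 4 and 6.

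**Figure D5:**
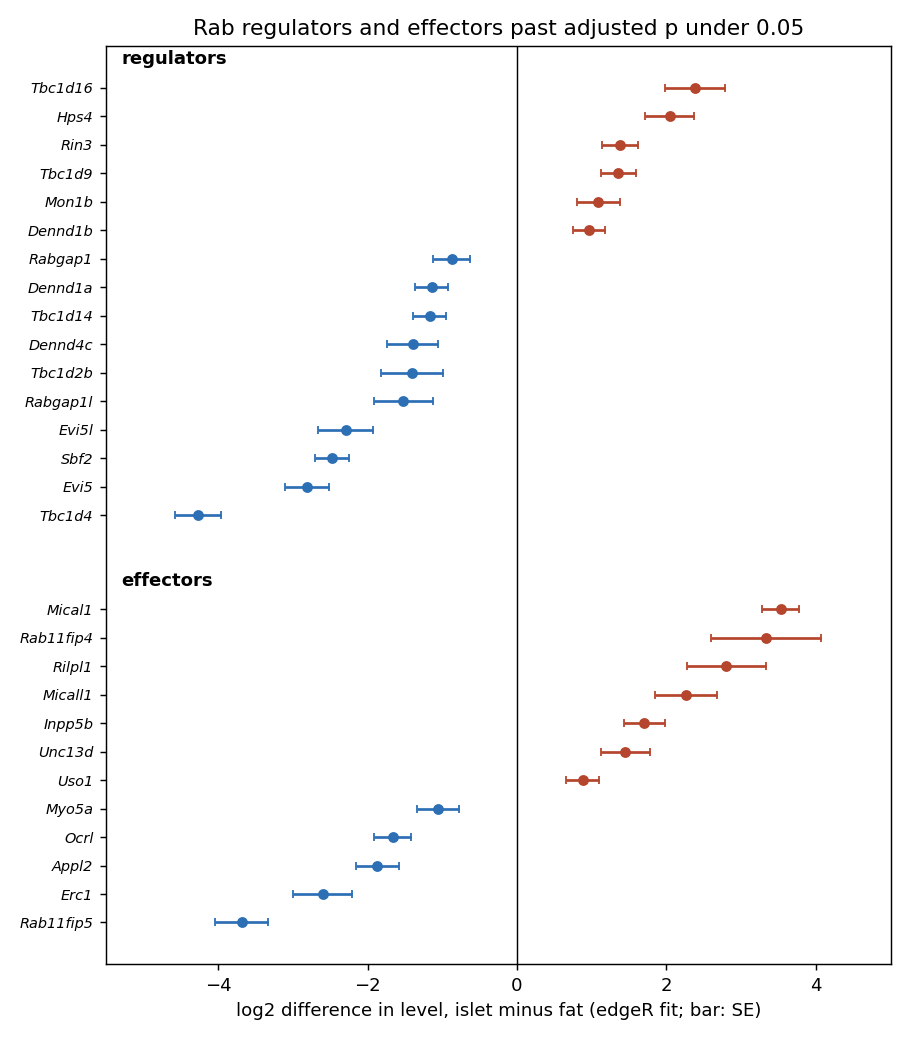
Log2 difference, islet minus fat, with its SE for the regulators and effectors of Rabs that passed. Rims2 and Sgsm1 are left out because fat had no counts. Tbc1d4 and Rab11fip5 lie farthest to the low side, at -4.27 and -3.68, and Mical1 farthest to the high side, at 3.53.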

How the data were processed

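Macrophage RNA of 3 islet and 3 fat samples was sequenced from 10 ng of total RNA each, with a stranded total RNA kit for low input, per the labels' protocols. The authors deposited raw counts per gene, with no normalisation. Per the submitters' processing notes, STAR, featureCounts, Subread 1.6.4 and GRCm38 were used; which annotation and strand setting went into the counting was not stated. Identifiers were matched to GENCODE M21 for coordinates and exon lengths (50376 of 50600).

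The counts were tested with edgeR 4.0.16 in R 4.3.3. Genes were kept by filterByExpr, TMM factors scaled the libraries, and quasi-likelihood fits (robust) of tissue gave islet minus fat. P values were Benjamini-Hochberg adjusted over 12152 genes, with a threshold of 0.05. SE is the size of the log2 difference over the root of F. The fit was tested on simulated data. CPM are counts per 1000000 of the scaled library size. Intervals are exact (Clopper-Pearson) at 95% and, like the floor of 3 counts per library, cover counting error only. Replicates are separate samples by label, and p values measure the spread between them.

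Named genes were all Rabs that passed, the 6 with the highest level, landmark Rabs, same-number paralogs, and in each direction the 6 regulators and 6 effectors with the smallest adjusted p, and the 3 sort marker genes. Members, lists and rules were chosen with earlier results of these data known. The design text calls the tissues autologous, so libraries with equal numbers were taken to come from the same animal or animals. The main fit has tissue as its only term and leaves this pairing out, and the replicate block, an alternative, uses it. Correlations of deviations from the tissue means were 0.046, 0.063 and -0.008 for the same number and -0.142 to 0.103 for others. Alternatives were DESeq2 1.42.0, voom in limma 3.58.1, upper-quartile and RLE factors, other filters and gene sets, the replicate block and libraries left out.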

Additional observations from a re-analysis of the deposited data

How the results depend on the processing

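The 4 higher and 3 lower Rab genes kept their direction under all 19 alternatives. The count of higher Rabs was 7 without a filter on low counts, which let in Rab25, Rab37 and Rab3b, and the count of lower Rabs was 6 with DESeq2. Of all genes, 6.52% were higher without that filter and 14.3% lower with DESeq2. With the replicate block, 4 Rabs were higher and 1 lower, beside 7.27% and 9.08% of all genes. The adjusted p values were then 0.118 for Rab38 and 0.0799 for Rab11b. In the partner lists the block took the calls of Mon1b (0.0580) and Rabgap1 (0.0639), added Rab11fip1 (0.0127) and Rin2 (0.0324) and changed no other call. When 1 library or 1 replicate number was left out, higher Rabs ranged from 0 to 7 and lower Rabs from 0 to 4, higher regulators from 0 to 8 and lower ones from 3 to 17, and higher effectors from 2 to 12 and lower ones from 1 to 14. In these same fits the share of all genes called in either direction ran from 3.11% without replicate 2 to 28.3% without islet library 6. Without fat library 4, edgeR called 0 higher Rabs, although 7 had an unadjusted p under 0.05, beside 3.66% of all genes. Without replicate 2 it called 0 higher and 0 lower, with 4 and 5 under an unadjusted p of 0.05, beside 1.28% and 1.83% of all genes. Without replicate 4 it called 0 lower Rabs, with 5 under that unadjusted p, beside 4.53% of all genes. On all libraries DESeq2 called 4 higher and 6 lower Rabs, beside 11.8% and 14.3% of all genes. Without islet libraries 2 and 4, a fit with 1 islet library that is assumed to vary like fat, there were 13 lower Rabs, 20 lower regulators, 16 higher and 10 lower effectors, while all genes shifted by -0.11 (log2). Lower effectors were 11 with DESeq2 and 8 without a filter, where 14.3% and 8.24% of all genes were lower. The cause was not tested. Of 779 named-gene values under alternatives, 667 kept direction and side of the threshold, 87 lost the call, 16 gained it and 9 changed sign, none of them called. With libraries or replicate numbers left out, the log2 difference ran from -0.033 to 0.16 for Rab7, from -0.52 to 0.19 for Rab1a and from -0.57 to 0.11 for Rab7b. Without islet libraries 2 and 4, Rab7b changed to 0.12 and Adgre1 to -0.16. Counts of a few reads limit the Rabs that could not be tested.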
